A study of Mus musculus with 6 samples.

Results

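NADPH oxidases carry electrons from NADPH across a membrane to oxygen and so make superoxide or hydrogen peroxide. In phagocytes the membrane pair of Cybb (gp91-phox, the catalytic subunit) and Cyba (p22-phox, its partner) stays silent until cytosolic subunits, among them Ncf1 and Ncf4, and the small GTPase Rac2 join it. Nox4 also needs Cyba but none of the cytosolic subunits, gives mainly hydrogen peroxide, and is best known in the kidney for its abundance in tubular epithelium. The genes described are Nox4, Cybb, Cyba, Ncf1, Ncf4 and Rac2, taken by symbol as members of this enzyme family, 6 of the 33696 genes counted.

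Whole kidneys of male C57BL/6 mice, aged 8 to 10 weeks, were digested with collagenase and sequenced as single cells by the droplet method of 10x Genomics, with 1 library for each of 3 Sham and 3 DOCA-salt mice. The DOCA-salt mice had lost the left kidney and carried for 21 days a pellet of 50 mg deoxycorticosterone acetate (DOCA), a mineralocorticoid, while they drank water with 1% NaCl. The Sham mice had a sham surgery, no pellet and normal water. Nephrectomy, DOCA and salt therefore cannot be told apart, and no source used here says whether mice shared a cage or a day of preparation.

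All members are protein-coding genes with known places in GRCm39. Nox4 (ENSMUSG00000030562) spans chr7:86895304-87047918 on the plus strand in 18 exons. Cybb (ENSMUSG00000015340) spans chrX:9301491-9354010 on the minus strand in 13 exons, and the genes Gm33784 and Xk overlap it on the opposite strand. Cyba (ENSMUSG00000006519), at chr8:123150422-123159706 on the minus strand, has 6 exons, and Il17c overlaps it on the opposite strand. Ncf1 (ENSMUSG00000015950), at chr5:134248907-134258479 on the minus strand, has 11 exons, and Gtf2ird2 overlaps it on the opposite strand. Ncf4 (ENSMUSG00000071715, 10 exons) and Rac2 (ENSMUSG00000033220, 7 exons) lie close together, at chr15:78128982-78146784 on the plus strand and chr15:78443367-78457429 on the minus strand. Gm63166 overlaps Rac2 on the opposite strand. The gap between Ncf4 and Rac2 is 296582 bases and holds 10 protein-coding genes.

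The start regions of the 4 genes that rose together in whole kidneys are given as letters of the GRCm39 plus or minus strand, 5′ to 3′ in the direction of the gene. Each runs from 250 bases before to 50 bases after the start of the gene's canonical transcript, which for Cybb lies inside the span given above. The windows are chrX:9335521-9335820 (Cybb, minus), chr5:134258430-134258729 (Ncf1, minus), chr15:78128732-78129031 (Ncf4, plus) and chr15:78457380-78457679 (Rac2, minus). Capitals mark GAGGAA or its reverse complement TTCCTC, the core of the binding site of PU.1, the myeloid transcription factor encoded by Spi1.
Cybb: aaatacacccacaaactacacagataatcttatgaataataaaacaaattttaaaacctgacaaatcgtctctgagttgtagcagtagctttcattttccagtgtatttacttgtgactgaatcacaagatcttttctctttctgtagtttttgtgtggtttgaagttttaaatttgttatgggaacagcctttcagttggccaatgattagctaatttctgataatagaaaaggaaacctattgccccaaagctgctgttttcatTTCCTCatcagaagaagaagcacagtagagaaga
Ncf1: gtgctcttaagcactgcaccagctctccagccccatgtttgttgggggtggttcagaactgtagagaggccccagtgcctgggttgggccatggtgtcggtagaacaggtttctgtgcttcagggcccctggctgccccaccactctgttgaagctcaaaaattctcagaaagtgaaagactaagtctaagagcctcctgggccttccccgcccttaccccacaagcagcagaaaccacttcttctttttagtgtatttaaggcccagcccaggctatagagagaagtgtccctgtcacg
Ncf4: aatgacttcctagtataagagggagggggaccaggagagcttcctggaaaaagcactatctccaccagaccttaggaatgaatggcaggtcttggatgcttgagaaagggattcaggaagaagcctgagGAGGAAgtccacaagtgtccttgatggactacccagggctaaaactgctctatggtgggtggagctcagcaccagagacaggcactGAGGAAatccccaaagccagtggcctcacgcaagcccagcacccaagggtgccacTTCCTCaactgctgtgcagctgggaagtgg
Rac2: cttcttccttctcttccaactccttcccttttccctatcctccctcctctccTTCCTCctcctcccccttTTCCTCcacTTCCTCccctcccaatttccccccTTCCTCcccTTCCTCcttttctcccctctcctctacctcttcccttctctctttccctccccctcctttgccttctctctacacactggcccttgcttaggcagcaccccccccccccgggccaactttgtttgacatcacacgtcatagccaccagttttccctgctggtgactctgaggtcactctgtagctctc
Cybb held 1 match, Ncf4 held 3, Rac2 held 5 within a pyrimidine-rich stretch, and Ncf1 held 0, as did Cyba and Nox4, whose windows are not shown. The hexamer occurred in 5891 of 21431 such windows of protein-coding genes (27.5%), on either strand. A match describes the letters of the window only, and binding was not measured.

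The libraries held between 93172739 and 137819127 UMIs (unique molecular identifiers, each marking 1 captured RNA molecule). Of 76774 barcodes, 55630 cells were kept, 7701 to 9933 from each mouse, with a median of 4787 to 9148 UMIs per cell and 15.5% to 25.8% mitochondrial UMIs. Between 33 and 69 barcodes were shared by any pair of libraries, at most 0.52% of the smaller library. Of 49 clusters, 45 could be named from markers, and the 4 unnamed clusters held 7997 cells. In 1 of these, 612 of 627 cells came from DOCA-salt mouse 2. Levels are given as CPM, the UMIs of a gene in each 1000000 UMIs summed over the cells of a mouse, with the mean ± SD over 3 mice in each group.

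In whole kidneys, 4 of the 6 members rose in DOCA-salt mice, and all 4 belong to the phagocyte enzyme. The 2 members that did not pass the test, Nox4 and Cyba, were those whose UMIs lay mostly in proximal tubule. The percentage of all 19658 genes tested that were called was 17.3% (11.5% higher and 5.72% lower) by edgeR's quasi-likelihood test at an adjusted p of 0.05.

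Nox4, the catalytic subunit of tubular cells, stood at 293, 507 and 419 CPM in the Sham mice and at 443, 364 and 326 CPM in the DOCA-salt mice. The groups overlapped fully. The means were 406 ± 108 and 378 ± 59.9 CPM, and the log2 change was -0.22 (SE 0.21, edgeR adjusted p = 0.521, 95% interval -0.63 to 0.19). Cyba, the partner of both catalytic subunits, was at 696, 649 and 725 CPM in Sham and at 654, 640 and 642 CPM in DOCA-salt mice. Its log2 change was -0.22 (SE 0.11, edgeR adjusted p = 0.222).

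Cybb, the catalytic subunit of phagocytes, was at 18.03, 19.96 and 19.08 CPM in the Sham mice and at 45.9, 68.9 and 86.0 CPM in the DOCA-salt mice. Every DOCA-salt mouse lay above every Sham mouse, although the DOCA-salt mice also differed among themselves. The mean ratio was 3.52, with a log2 change of 1.69 (SE 0.19, edgeR adjusted p = 0.00128). Ncf1, the organizer subunit that carries the activating phosphorylation sites, rose from 0.852, 1.40 and 0.968 CPM to 4.16, 5.16 and 6.37 CPM. This was the steepest of the 6 changes on the log2 scale, at 2.17 (SE 0.23, edgeR adjusted p = 0.00100). Ncf4, which binds a phosphoinositide of the phagosome membrane, rose from 1.11, 1.65 and 1.47 CPM to 3.38, 4.54 and 5.60 CPM (log2 change 1.56, SE 0.23, edgeR adjusted p = 0.00343). Rac2, the GTPase of blood cells, rose from 6.73, 6.04 and 7.50 CPM to 11.5, 14.7 and 13.5 CPM (log2 change 0.85, SE 0.14, edgeR adjusted p = 0.00540). For these 4 genes the groups did not overlap, which was so, in the higher direction, for 26.6% of all genes tested.

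**Figure D1:**
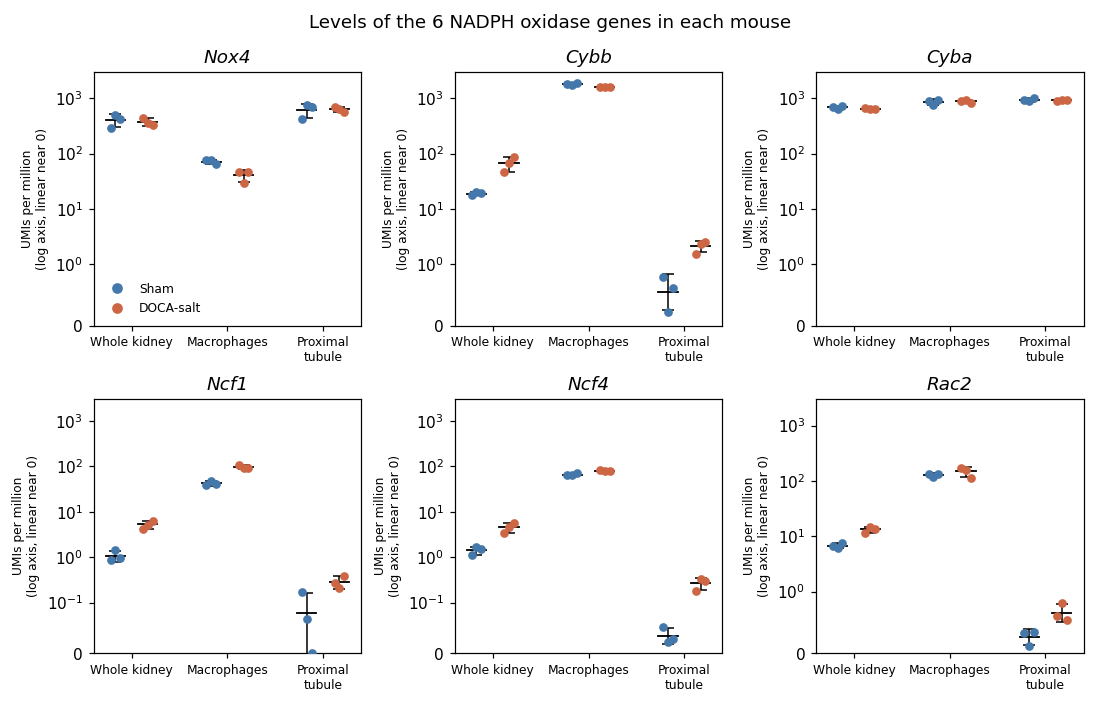
Level of each of the 6 genes (y axis, CPM on a log axis that is linear near 0) in whole kidneys, macrophages and proximal tubule (x axis), with 1 point per mouse, the mean and the SD of 3 Sham (blue) and 3 DOCA-salt (orange) mice. Cybb, Ncf1, Ncf4 and Rac2 are higher in every DOCA-salt whole kidney, whereas within macrophages only Ncf1 of these 4 passes the test.

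Macrophages made up 1.57% ± 0.187 of all cells kept from Sham kidneys and 6.19% ± 1.16 from DOCA-salt kidneys, and these shares moved with the whole-kidney levels. In such sums, more cells of a type and more RNA per cell cannot be told apart. With macrophages left out of the sums, the log2 changes were 1.31 for Cybb (edgeR adjusted p = 0.00334), 1.31 for Ncf1 (0.0111), 0.91 for Ncf4 (0.0441) and 0.45 for Rac2, which no longer passed (0.0700). With all immune types left out, the changes were 2.26 for Cybb (edgeR adjusted p = 0.000456), 1.95 for Ncf1 (0.00120), 2.38 for Ncf4 (0.00245) and 1.70 for Rac2 (0.00526), in sums that still held the cycling and unnamed clusters. Immune types held most UMIs of these genes in both groups, so these changes come from the smaller remaining part. Of the UMIs left, cycling cells held 41 of Cybb, 3 of Ncf1, 1 of Ncf4 and 13 of Rac2 in Sham mice. In DOCA-salt mice they held 874, 96, 55 and 173. Unnamed clusters held 59, 5, 4 and 18 in Sham and 189, 23, 29 and 68 in DOCA-salt mice. With the cells of each type weighted as in the Sham mice, the ratio of UMIs per cell between groups went from 3.97 to 1.43 for Cybb, from 5.50 to 2.61 for Ncf1, from 3.64 to 1.78 for Ncf4 and from 2.30 to 1.47 for Rac2. The ratios of Nox4 (1.10 and 1.21) and Cyba (1.09 and 1.15) were close to each other before and after this weighting. None of these ratios was corrected for depth, so deeper cells raise them. Macrophages had a median of 3882 UMIs per cell in Sham and 4760 in DOCA-salt mice.

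The UMIs of each gene came from different cells. Proximal tubule cells held 94.3% ± 1.16 of the Nox4 UMIs of the Sham mice and 84.4% ± 3.87 of those of the DOCA-salt mice, and 84.6% ± 4.46 and 70.6% ± 6.26 of the Cyba UMIs. Macrophages held 77.4% ± 2.89 of the Cybb UMIs in Sham and 82.8% ± 2.09 in DOCA-salt mice. The share of macrophages in the Ncf1 UMIs went from 32.7% ± 4.01 to 63.3% ± 4.64, while that of dendritic cells went from 25.7% ± 10.9 to 13.1% ± 3.88. Ncf4 showed the same order, with 38.6% ± 6.43 and 60.9% ± 4.83 in macrophages. Rac2 differed from the others in that T cells were its main source in Sham mice, with 48.3% ± 3.05 of UMIs (36.3% ± 2.50 after DOCA-salt), against 15.6% ± 1.02 and 37.6% ± 2.48 in macrophages.

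**Figure D2:**
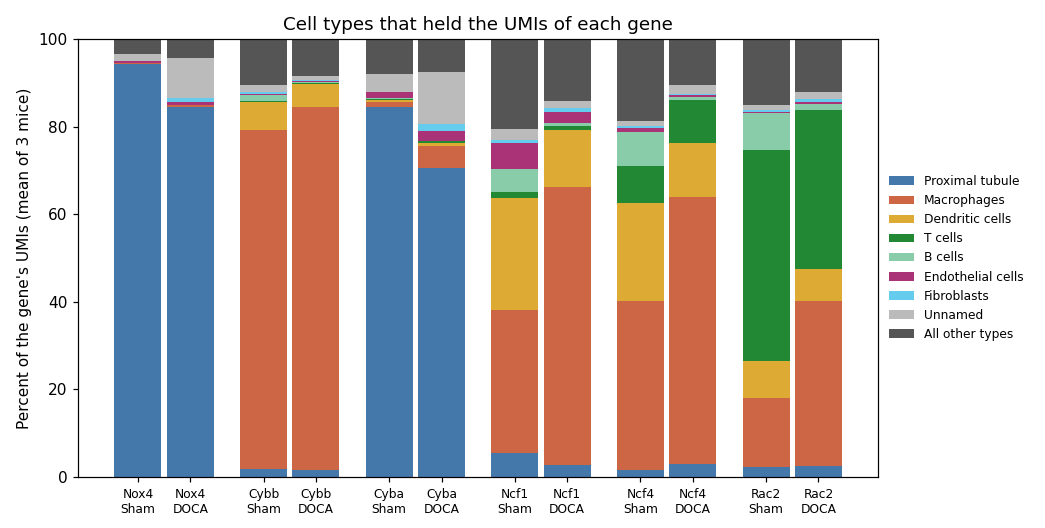
Share of each gene's UMIs (y axis, percent, mean of 3 mice) held by each cell type (colors), for each gene and group (x axis). Nox4 and Cyba UMIs lie mostly in proximal tubule, Cybb UMIs in macrophages, and the macrophage share of Ncf1, Ncf4 and Rac2 is larger in DOCA-salt mice.

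Ranked by mean level in Sham mice, Nox4 was highest in proximal tubule (617 ± 168 CPM), and cycling cells (358 ± 146 CPM) came next among types with at least 10 cells in every mouse, and the ranges of the mice in these 2 types overlapped. Every other such type lay between 23.3 and 71.9 CPM. Each of these types overlapped its neighbors in the order of the means. To set a scale for free RNA, the Nox4 level that would come with the proximal tubule markers counted in a type, at their ratio in proximal tubule cells, was computed in each mouse. In these types of the Sham mice it was 30.0 to 79.1 CPM, and in cycling cells 442 CPM. The larger cycling cluster, of 706 cells, had proximal tubule as its next-best class by markers, so its value need not reflect free RNA. The part of free RNA in the levels was not tested otherwise. Cybb was highest in macrophages (1811 ± 45.0 CPM) and monocytes (1602 ± 173 CPM), which overlapped, then in dendritic cells (320 ± 91.2 CPM) and B cells (138 ± 25.2 CPM).

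Cyba was the most evenly spread member. It stood at 858 to 1063 CPM in monocytes, proximal tubule, cycling cells and macrophages of Sham mice, whose ranges overlapped, and among these types was lowest in intercalated cells (86.4 ± 33.5 CPM). Ncf1 was at 103 ± 35.5 CPM in monocytes, 69.1 ± 28.1 CPM in dendritic cells and 42.2 ± 4.69 CPM in macrophages of Sham mice. Ncf4 was at 158 ± 53.7, 73.2 ± 24.5 and 65.5 ± 4.38 CPM in the same types. Rac2 had its highest level in T cells (663 ± 71.3 CPM), about as high in neutrophils (607 ± 105 CPM, 25 cells), and stood at 130 ± 8.53 CPM in macrophages.

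**Figure D3:**
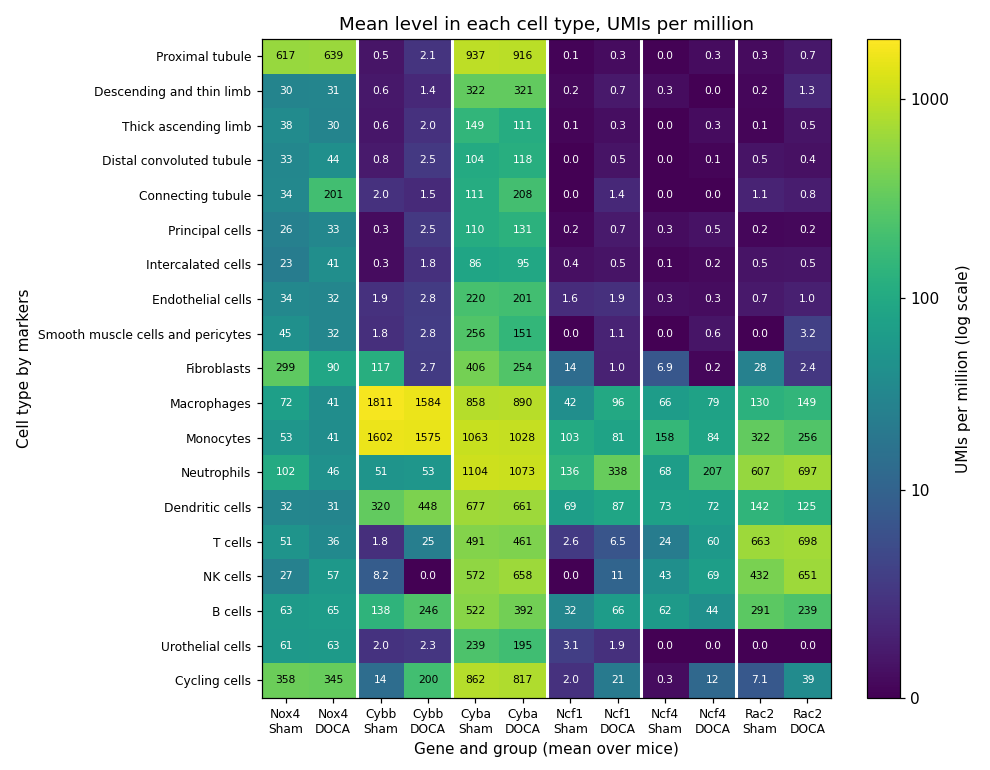
Mean level over mice (color, log scale; the printed value is CPM) of each gene in Sham and DOCA-salt mice (x axis, DOCA standing for DOCA-salt) for 19 cell types named from markers (y axis). Cybb is highest in macrophages and monocytes, Nox4 in proximal tubule and Rac2 in T cells and neutrophils, and the Nox4 level of connecting tubule is 34 in Sham and 201 in DOCA-salt mice.

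Macrophages (428 cells in Sham and 1750 in DOCA-salt mice) held more Cybb, Ncf1 and Ncf4 UMIs than any other type in both groups, and the comparison asks whether their level per macrophage RNA differed. Within macrophages 1 member rose, Ncf1, and 1 fell, Nox4, whereas Cybb, Cyba, Ncf4 and Rac2 did not pass the test. Of all 9046 genes tested in macrophages, 6.08% were called, 2.85% as higher and 3.23% as lower.

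Ncf1 stood at 38.9, 47.6 and 40.0 CPM in the macrophages of the Sham mice and at 105, 92.6 and 91.6 CPM in those of the DOCA-salt mice. The lowest DOCA-salt mouse was well above the highest Sham mouse. The ratio of the means, 42.2 ± 4.69 and 96.4 ± 7.45 CPM, was 2.29, with a log2 change of 1.10 (SE 0.18, edgeR adjusted p = 0.00164, from 76 and 872 UMIs). The call held without each mouse in turn (log2 change 1.01 to 1.22, adjusted p 0.00146 to 0.0182).

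The share of macrophages with an Ncf1 UMI, after every cell had been thinned to 1000 UMIs, was 3.96% ± 0.531 in Sham and 7.77% ± 0.778 in DOCA-salt mice. This was the smallest p that 3 against 3 mice allow (two-sided exact permutation test, p = 0.1). Without thinning the shares were 16.2% and 30.1%, at median depths of 3882 and 4760 UMIs, and thinning left out 15 Sham and 166 DOCA-salt cells that were shallower. In T cells, where Ncf1 stood at 2.64 and 6.47 CPM, the thinned shares were 0.244% and 0.568%, at median depths of 3249 and 3847 UMIs.

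Macrophages were also divided by 3 other genes, without a test between the resulting subsets. Cells with a UMI of Trem2, Fcrls or Gpnmb, genes of lipid-handling and microglia-like macrophages, were 65 of 428 in Sham and 959 of 1750 in DOCA-salt mice. Among macrophages without such a UMI, Ncf1 was at 41.3, 42.7 and 31.8 CPM in Sham and at 88.2, 70.0 and 65.3 CPM in DOCA-salt mice. The log2 change of 0.85 missed the threshold (edgeR adjusted p = 0.0635). Among macrophages with such a UMI the levels were 30.8, 78.8 and 83.4 CPM in Sham and 114, 103 and 108 CPM in DOCA-salt mice (log2 change 0.87, edgeR adjusted p = 0.315). These Sham values rest on few cells.

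Among the macrophage clusters, Ncf1 ranged from 34.3 CPM in a cluster of 243 cells with a median of 785 UMIs to 187 CPM in a cluster of 109 cells, 108 of them from DOCA-salt mice. A cluster of 342 cells, 268 of them from Sham mice, stood at 50.2 CPM. The choice of cells mattered. When macrophages were instead taken in any cluster by UMIs of at least 3 of 8 markers, the log2 change was 0.48 (edgeR adjusted p = 0.585). Of the cells taken in this way, 89.2% in Sham and 77.9% in DOCA-salt mice lay in macrophage clusters, where Ncf1 was at 43.9 ± 4.73 and 97.6 ± 7.49 CPM. Those in other clusters had 23.6 ± 19.3 and 17.3 ± 6.28 CPM.

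Cybb went the other way at the level of single values. It stood at 1804, 1770 and 1859 CPM in the macrophages of Sham mice and at 1606, 1574 and 1570 CPM in those of DOCA-salt mice. The groups did not overlap, which was so, in the lower direction, for 8.32% of genes tested, and the log2 change of -0.29 did not pass the test (SE 0.15, edgeR adjusted p = 0.327, 95% interval -0.59 to 0.01). The thinned share of macrophages with a Cybb UMI was 74.7% ± 1.25 and 70.4% ± 1.17 (exact permutation test, p = 0.1). The lower level appeared in macrophages without a UMI of Trem2, Fcrls or Gpnmb (1854 ± 19.8 and 1580 ± 94.2 CPM), whereas those with such a UMI had 1600 ± 299 and 1590 ± 72.2 CPM.

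Cyba in macrophages was at 883, 743 and 948 CPM in Sham and at 907, 927 and 836 CPM in DOCA-salt mice (log2 change -0.04, edgeR adjusted p = 0.926, 95% interval -0.35 to 0.26). Ncf4 was at 62.6, 63.4 and 70.6 CPM in Sham and at 81.2, 79.3 and 77.1 CPM in DOCA-salt mice. Its groups did not overlap, as was so in the higher direction for 16.4% of genes tested, but the log2 change was only 0.19 (SE 0.16, edgeR adjusted p = 0.620). Rac2 was at 134, 120 and 135 CPM in Sham and at 174, 160 and 112 CPM in DOCA-salt mice, which overlapped (log2 change 0.10, edgeR adjusted p = 0.832).

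Nox4 in macrophages was at 75.1, 75.7 and 64.8 CPM in Sham and at 46.5, 28.9 and 46.7 CPM in DOCA-salt mice (log2 change -0.93, SE 0.21, edgeR adjusted p = 0.0148). The mean levels were below those that would come with free RNA of proximal tubule, 79.1 and 47.7 CPM, as were the values of every mouse except 1 Sham mouse. The summed level of the 8 proximal tubule markers in macrophages went from 1164 to 1563 CPM in Sham to 624 to 853 CPM in DOCA-salt mice, all 8 being detected, and the part of proximal tubule RNA in the result was not tested. The call was lost in 7 alternatives, among them without Sham mouse 1 (adjusted p = 0.0695), and with macrophages taken by markers the log2 change was 0.12 (adjusted p = 0.920).

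**Figure D4:**
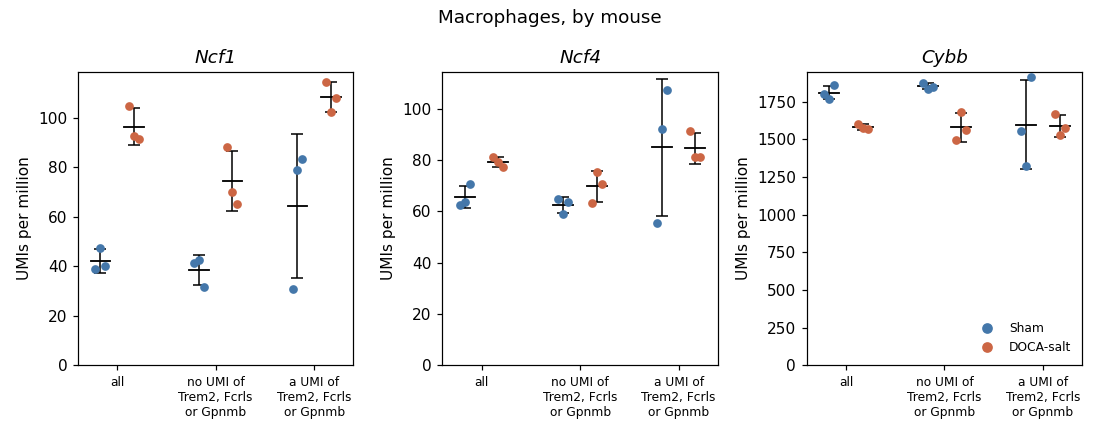
Level of Ncf1, Ncf4 and Cybb (y axes, CPM, from 0) in all macrophages and in those without or with a UMI of Trem2, Fcrls or Gpnmb (x axis), with 1 point per mouse, the mean and the SD of 3 Sham (blue) and 3 DOCA-salt (orange) mice. Ncf1 is higher in every DOCA-salt mouse for all 3 sets of cells, Cybb is lower in all macrophages and in those without such a UMI, and the Sham values of the smallest subset, 65 cells, are the most spread.

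Single cells often held several subunits at once. In Sham mice 87.4% of macrophages, and in DOCA-salt mice 81.1%, had UMIs of both Cybb and Cyba, and 31.1% and 42.8% had in addition a UMI of Ncf1 or Ncf4. Among monocytes the latter share was 64.7% of 51 cells and 46.7% of 45 cells, and among dendritic cells 24.3% and 34.5%. In proximal tubule it was 0.0142% and 0.0152%. These shares were not thinned and depend on depth.

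Other immune cells carried parts of the enzyme. Monocytes, the circulating precursors of many macrophages, had Cybb at 1602 ± 173 and 1575 ± 299 CPM. Dendritic cells, antigen-presenting cells, had Ncf1 at 69.1 ± 28.1 and 87.3 ± 9.54 CPM (log2 change 0.27) and Cybb at 320 ± 91.2 and 448 ± 112 CPM (log2 change 0.44). None of the 6 members passed in dendritic cells (lowest edgeR adjusted p = 0.794), where 0.197% of 5579 genes were called, nor any of the 3 tested in B cells (0.0576% of 1735 genes called) or in monocytes. In monocytes no gene at all was called among 1374 (0.0%; 54 genes at an unadjusted p of 0.05, and 0 by DESeq2). The change of Ncf1 in macrophages minus that in dendritic cells was 0.80 on the log2 scale (SE 0.31, edgeR adjusted p = 0.332), so a difference between these types was not detected, and 0.683% of genes passed that test.

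T cells had Ncf4 at 30.4, 22.8 and 17.4 CPM in Sham and at 61.8, 56.3 and 61.5 CPM in DOCA-salt mice. The groups did not overlap, as was so in the higher direction for 9.43% of genes tested, and the log2 change of 1.27 missed the threshold (SE 0.31, edgeR adjusted p = 0.0595, from 26 and 110 UMIs), where 1.16% of 6183 genes passed. It passed with scaling by library size only and without the low-count filter (adjusted p down to 0.0180). Cybb in T cells rested on 2 UMIs in Sham and 46 in DOCA-salt mice and was too low to be tested. Rac2 in T cells was at 663 ± 71.3 and 698 ± 165 CPM (log2 change 0.02).

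In cycling cells 4 members were called as higher, where 8.59% of 9896 genes were called, 7.05% in that direction, with Cybb at 14.1 ± 5.29 and 200 ± 22.7 CPM. The Sham counts behind the other 3 calls were very low, with 3 UMIs of Ncf1, 1 of Ncf4 and 13 of Rac2, against 96, 55 and 173 in DOCA-salt mice. Ncf1, Ncf4 and Rac2 could therefore be tested only through the DOCA-salt group. The makeup of the cycling cells differed between the groups. A cycling cluster with 1231 CPM of Cybb held 56 cells, 52 of them from DOCA-salt mice. In the other cycling cluster, of 706 cells, Cybb was at 2.15 CPM over both groups. The part of this makeup in the 4 calls was not tested.

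In proximal tubule (14113 Sham and 13154 DOCA-salt cells), the main site of Nox4 and Cyba, neither gene passed the test. Of 16072 genes tested, 7.09% were called, 4.87% as higher and 2.22% as lower. Nox4 stood at 426, 744 and 681 CPM in the Sham mice and at 705, 646 and 567 CPM in the DOCA-salt mice. The DOCA-salt values all fell within the Sham range, which Sham mouse 1 widened. The means were 617 ± 168 and 639 ± 69.4 CPM, and the log2 change was -0.01 (SE 0.21, edgeR adjusted p = 0.976, 95% interval -0.43 to 0.41). The share of cells with a Nox4 UMI after thinning was 36.1% ± 7.05 and 37.6% ± 2.29 (exact permutation test, p = 0.9). In endothelial cells, a type outside the tubule, it was 4.31% and 3.80%, at median depths of 3968 and 6715 UMIs against 8982 and 9158 in proximal tubule.

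Cyba in proximal tubule was at 922, 879 and 1009 CPM in Sham and at 911, 920 and 917 CPM in DOCA-salt mice. Its log2 change was -0.09 (SE 0.12, edgeR adjusted p = 0.683, 95% interval -0.33 to 0.14).

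The level of Nox4 also differed between stretches of the proximal tubule. Cells of S1-like clusters had 1067 ± 233 CPM in Sham and 990 ± 150 CPM in DOCA-salt mice (log2 change -0.17, edgeR adjusted p = 0.720). Cells of S2-like clusters had 230 ± 68.4 and 300.9 ± 59.5 CPM (log2 change 0.34, edgeR adjusted p = 0.384), and the few S3-like cells 115 ± 101 and 68.9 ± 26.4 CPM. Of the genes tested in these subsets, 4.11%, 9.63% and 0.497% were called. In every mouse the S1-like level was above the S2-like level. By cluster, Nox4 in Sham mice ranged from 1488 ± 377 CPM in an S1-like cluster to 129 ± 25.8 CPM in an S2-like cluster and 115 ± 101 CPM in the S3-like cluster. Cyba had its lowest level, 513 ± 24.7 CPM, in the cluster where Nox4 was highest, and its highest, 1276 ± 106 CPM, in the S2-like cluster where Nox4 was at 129 CPM. Other clusters were high or low in both, with Nox4 at 1019 ± 201 and Cyba at 1150.5 ± 121 CPM in an S1-like cluster and at 257 ± 80.1 and 591 ± 102 CPM in an S2-like cluster. The clusters were formed without these genes.

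Of the phagocyte subunits, Cybb passed the test in proximal tubule at a very low level, with 0.799, 0.227 and 0.618 CPM in Sham and 1.57, 2.33 and 2.48 CPM in DOCA-salt mice (log2 change 1.86, SE 0.37, edgeR adjusted p = 0.0211, from 80 and 275 UMIs). The level computed from the macrophage markers counted in proximal tubule was 8.97 CPM in Sham and 8.50 CPM in DOCA-salt mice. It exceeded the mean levels counted, 0.548 and 2.13 CPM, so this scale does not measure the free RNA of macrophages here. The summed level of the 8 macrophage markers in proximal tubule cells, all detected, was 41.5 to 68.7 CPM in Sham and 68.6 to 79.5 CPM in DOCA-salt mice. The part of macrophage RNA in the result was not tested. The call was lost without Sham mouse 3 (adjusted p = 0.0563), DOCA-salt mouse 2 (0.0679) or DOCA-salt mouse 3 (0.0841). Rac2 was at 0.262 ± 0.129 and 0.653 ± 0.149 CPM (edgeR adjusted p = 0.0836), and Ncf1 and Ncf4, with 13 and 5 UMIs in Sham and 37 and 35 in DOCA-salt mice, were too low to be tested in proximal tubule alone.

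The changes in macrophages and proximal tubule were compared within mice. On the log2 scale the change in macrophages minus that in proximal tubule was -0.92 for Nox4 (SE 0.22, edgeR adjusted p = 0.00161), -2.04 for Cybb (SE 0.25, 1.88e-11), -2.41 for Ncf4 (SE 0.61, 0.00449) and -1.06 for Rac2 (SE 0.32, 0.0224). It was 0.11 for Cyba (adjusted p = 0.759) and -0.34 for Ncf1 (adjusted p = 0.796). Of all genes 6.26% passed that test. Ncf1 and Ncf4 entered it because the low-count filter was set over both types together, and their part in proximal tubule rests on the few UMIs given above. Cybb and Rac2 were also very low in proximal tubule. Their means there were 0.548 and 0.262 CPM in Sham and 2.13 and 0.653 CPM in DOCA-salt mice. The mean Nox4 level in macrophages was 71.9 and 40.7 CPM, where free RNA of proximal tubule would give 79.1 and 47.7 CPM. The part of free RNA in these differences was not tested.

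The connecting tubule, the segment just after the distal convoluted tubule that responds to mineralocorticoids, was the 1 tubular type of 7 tested in which Nox4 passed the test with the settings used throughout, and there it rose. The marker-defined cluster held 139, 180 and 227 cells in the Sham mice and 110, 97 and 92 cells in the DOCA-salt mice. Its Nox4 level was 22.8, 33.1 and 45.2 CPM in Sham and 200, 187 and 216 CPM in DOCA-salt mice. The groups were far apart, with means of 33.7 ± 11.2 and 201 ± 14.4 CPM, a ratio of 5.96 and a log2 change of 2.37 (SE 0.20, edgeR adjusted p = 8.04e-07, from 158 and 769 UMIs). This is a cluster in which 24.5% of 9930 genes were called, 12.2% as higher and 12.3% as lower.

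The Sham level was within what free RNA of proximal tubule would give (48.8 CPM expected), whereas the DOCA-salt level exceeded its expectation of 27.9 CPM in 3 of 3 mice. Thinned to 1000 UMIs, 3.57% ± 1.15 of Sham cells and 13.5% ± 0.878 of DOCA-salt cells had a Nox4 UMI (exact permutation test, p = 0.1). The unthinned shares were 20.3% and 49.7%, at median depths of 8586 and 12313 UMIs. In intercalated cells the thinned shares were 2.84% and 3.17%, and in thick ascending limb 4.40% and 3.09%. The change exceeded that in proximal tubule by 2.39 (SE 0.19, edgeR adjusted p = 3.29e-15) and that in principal cells, the neighbors in the collecting duct, by 2.02 (SE 0.21, 6.78e-08). These tests called 17.0% and 17.2% of genes.

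Cyba in the connecting tubule was at 96.3, 61.6 and 174 CPM in Sham and at 187, 193 and 243 CPM in DOCA-salt mice. The groups did not overlap, as was so in the higher direction for 28.5% of genes tested in this cluster, and the log2 change of 0.70 did not pass the test (SE 0.27, edgeR adjusted p = 0.0764). It passed in 5 of 17 alternatives, with scaling by library size only (adjusted p = 0.0172), without the low-count filter (0.000785), with the replicate number as a block (0.0257), without Sham mouse 3 (log2 change 1.21, 0.00142) and at 20% mitochondrial UMIs (0.00611), and adjusted p over the others reached 0.838. The change exceeded that in proximal tubule by 0.87 (SE 0.19, edgeR adjusted p = 6.76e-04) and that in principal cells by 0.45 (SE 0.15, 0.0391).

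The cluster itself differed between the groups. The summed level of its 4 markers was 24069 to 27554 CPM in Sham and 17600 to 20328 CPM in DOCA-salt mice. That of 6 principal cell markers was 3261 to 3685 and 909 to 1036 CPM, that of 5 thin limb markers 100 to 132 and 285 to 460 CPM, and that of 6 monocyte markers, of which 5 were detected, 1.47 to 6.62 and 75.9 to 117 CPM. Proximal tubule markers went from 540 to 1173 CPM in Sham to 375 to 454 CPM in DOCA-salt mice. Their part in the Nox4 result was not tested beyond the following subsets.

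In cells with UMIs of at least 3 of the 4 connecting tubule markers (477 and 215 cells), Nox4 was at 32.7 ± 10.3 and 137 ± 16.7 CPM (log2 change 1.91, edgeR adjusted p = 9.91e-06). In cells with no UMI of a thin limb marker (293 and 116 cells) it was at 35.9 ± 20.9 and 114 ± 31.7 CPM (log2 change 1.63, edgeR adjusted p = 0.00800). Without doublet removal the log2 change was 1.36 (edgeR adjusted p = 9.27e-06). Cells taken by these markers in any cluster gave 97.8 ± 45.9 and 150 ± 40.5 CPM and no call (log2 change 0.59, edgeR adjusted p = 0.498). Of those 1660 and 1604 cells, however, 28.7% and 13.4% lay in the connecting tubule cluster, 18.4% and 26.9% in distal convoluted tubule clusters, 13.0% and 5.99% in proximal tubule and 2.89% and 22.1% in unnamed clusters.

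**Figure D5:**
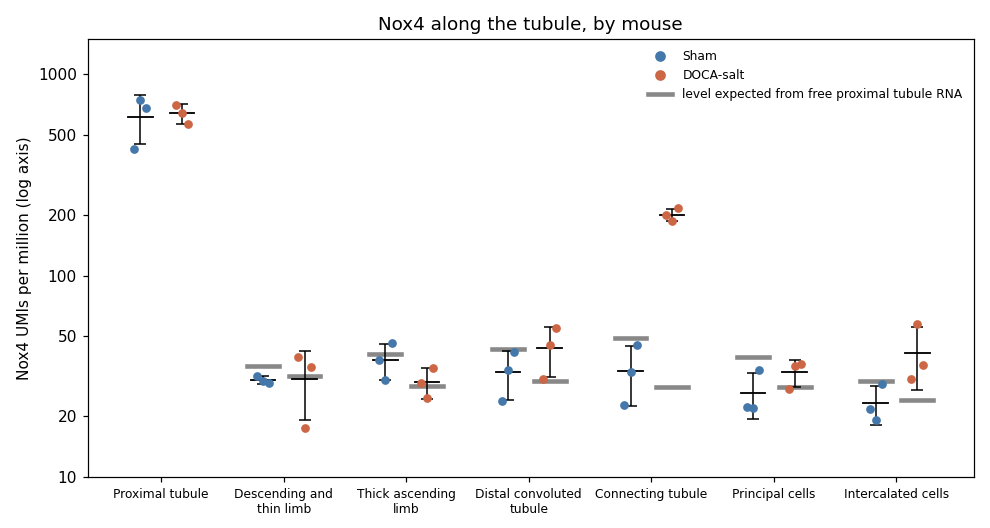
Nox4 level (y axis, CPM, log axis) along the tubule (x axis, segments in order), with 1 point per mouse, the mean and the SD of 3 Sham (blue) and 3 DOCA-salt (orange) mice, and gray bars for the level expected from free proximal tubule RNA. Outside proximal tubule, the DOCA-salt connecting tubule, at 187 to 216, is the value farthest above its gray bar.

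In the other tubular and stromal types 0 of the 2 or 3 members tested passed. The share of all genes called was 0.671% in descending and thin limb, 1.68% in thick ascending limb, 7.43% in distal convoluted tubule, 7.22% in principal cells, 6.44% in intercalated cells, 11.4% in endothelial cells and 1.76% in smooth muscle cells and pericytes. Intercalated cells, the acid-base cells of the collecting system, had Nox4 at 21.7, 19.2 and 29.1 CPM in Sham and at 30.7, 57.3 and 35.8 CPM in DOCA-salt mice (log2 change 0.84, SE 0.24, edgeR adjusted p = 0.0629), against 30.0 and 24.2 CPM expected from free RNA. This Nox4 change passed with DESeq2 (adjusted p = 0.0172), without the low-count filter (3.10e-05) and at 20% mitochondrial UMIs (0.00600), but turned to -0.20 at Leiden resolution 2 and was 0.02 without doublet removal. In principal cells the Nox4 change of 0.39 (edgeR adjusted p = 0.333) passed at Leiden resolution 2 (log2 change 1.27, adjusted p = 0.0146) and turned to -0.09 without doublet removal. Without Sham mouse 2, Nox4 and Cyba passed as lower in thick ascending limb (log2 changes -0.56 and -0.68, adjusted p = 0.0286 and 0.00420), and Cybb as higher in endothelial cells, from a log2 change of 0.62 to 1.71 (adjusted p = 0.0390, at 1.93 ± 1.90 and 2.80 ± 0.305 CPM over all mice). In smooth muscle cells and pericytes Cyba was at 256 ± 54.1 and 151 ± 43.1 CPM (log2 change -0.82, edgeR adjusted p = 0.0752), a change that passed without the low-count filter (0.00410) and without Sham mouse 2 (0.0109). Fibroblasts were too few in Sham mice (39 cells in all) to be tested. In DOCA-salt mice (838 cells) their Nox4 level was 89.9 ± 16.7 CPM, above the 34.8 CPM expected from free RNA in 3 of 3 mice, and their Cyba level 254 ± 4.65 CPM. In the few Sham fibroblasts Nox4 was at 299 ± 298 CPM, also above the 87.3 CPM expected in 3 of 3 mice.

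The rest of the pathway was described by lists of related genes. In whole kidneys 2 of 9 tested partners of the enzyme (of 12 listed) were higher and 0 lower, where 11.5% of all genes were higher, with a median log2 change of 0.20 against -0.02 for all genes. They were Vav1, an exchange factor for Rac proteins (1.25 ± 0.0607 and 3.86 ± 1.13 CPM, log2 change 1.49, edgeR adjusted p = 0.00401), and Cybc1, the chaperone of Cybb and Cyba (6.01 ± 0.548 and 9.46 ± 0.978 CPM, log2 change 0.54, 0.0240). Of 4 regulators of phagocyte genes, 2 were higher, Spi1 (PU.1, 5.53 ± 1.59 and 19.7 ± 4.06 CPM, log2 change 1.72, 0.00201) and Irf8 (17.2 ± 4.82 and 31.5 ± 7.45 CPM, log2 change 0.75, 0.0469). The calls of Irf8 and Cybc1 were lost in 8 and 6 of 16 alternatives, among them leaving out Sham mouse 1, Sham mouse 3 or DOCA-salt mouse 3 for both and DOCA-salt mouse 1 for Irf8 (adjusted p up to 0.165 and 0.108). Neither of the 2 other catalytic subunits tested passed, with log2 changes of -0.48 for Nox1 (edgeR adjusted p = 0.0963) and -1.11 for Duox1 (0.0578).

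All 12 enzymes that remove superoxide or peroxide had log2 changes below 0 in whole kidneys, with a median of -0.32 against -0.02 for all genes, but 2 passed the test, where 5.72% of all genes were lower. Sod2, the mitochondrial superoxide dismutase, fell from 440 ± 61.2 to 328 ± 37.1 CPM (log2 change -0.54, edgeR adjusted p = 0.0340), and Prdx6, a peroxiredoxin, from 206 ± 20.3 to 167 ± 13.2 CPM (log2 change -0.42, 0.0401). These calls were lost in 5 and 8 of 16 alternatives, among them leaving out Sham mouse 1, DOCA-salt mouse 2 or DOCA-salt mouse 3 for both and Sham mouse 2 for Prdx6 (adjusted p up to 0.175 for Prdx6). Of 15 genes that respond to tissue dissociation, 0 were called.

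Within macrophages 2.85% of all genes were higher and 3.23% lower. Of 8 tested partners 1 was higher there, Cybc1, at 19.0 ± 2.82 and 41.8 ± 5.71 CPM (log2 change 1.01, edgeR adjusted p = 0.0209). This call was lost in 8 of 18 alternatives, among them leaving out any 1 Sham mouse or DOCA-salt mouse 1, both subsets by Trem2, Fcrls or Gpnmb and macrophages taken by markers (adjusted p up to 0.702). None of 4 regulators passed, Spi1 being at 317 ± 60.9 and 368 ± 27.5 CPM (edgeR adjusted p = 0.753). Of the 12 removing enzymes Sod2 was lower (166 ± 17.2 and 111 ± 14.6 CPM, log2 change -0.67, adjusted p = 0.0192), a call lost in 10 of 18 alternatives, among them leaving out Sham mouse 3, DOCA-salt mouse 1 or DOCA-salt mouse 2 (adjusted p up to 0.690), and the list's median was -0.46 against 0.00 for all genes. Of the 15 dissociation genes Ier3 was higher and Dnajb1, Hsp90aa1 and Hspa1a lower, with Dnajb1 at 593 ± 47.2 and 257 ± 82.7 CPM, and the part of handling in the other values was not tested.

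In proximal tubule 4.87% of all genes were higher and 2.22% lower. There 0 of 8 partners and 0 of 12 removing enzymes passed, with medians of -0.05 and -0.17 against -0.02 for all genes. Of the regulators, Spi1 (0.220 ± 0.0730 and 0.947 ± 0.164 CPM) and Cebpa, a factor also known in hepatic and myeloid cells (9.01 ± 1.90 and 15.7 ± 2.36 CPM, log2 change 0.74, edgeR adjusted p = 0.0395), were higher, the former at a level as low as that of Cybb there. By the low-count filter, Spi1 could be tested there only through the DOCA-salt group. The Cebpa call was lost in 6 of 17 alternatives, among them leaving out Sham mouse 1, Sham mouse 3, DOCA-salt mouse 1 or DOCA-salt mouse 3 (adjusted p up to 0.144). Egr1 was the 1 dissociation gene called, as lower, and kept that call in 5 of 17. Of the 15 genes 14 had log2 changes below 0, with a median of -0.39 against -0.02 for all genes.

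In the connecting tubule cluster Nox1, another catalytic subunit, was lower (13.2 ± 4.93 and 4.66 ± 0.634 CPM, log2 change -1.67, edgeR adjusted p = 0.00575). Rac3, a relative of Rac2, was higher (4.29 ± 1.21 and 12.5 ± 1.05 CPM, log2 change 1.32, edgeR adjusted p = 0.0176). By the low-count filter, Nox1 could be tested only through the Sham group and Rac3 only through the DOCA-salt group. Of the 12 removing enzymes 3 were lower, Sod2, the catalase gene Cat and Prdx5, with Prdx5 at 1306 ± 6.51 and 735 ± 102 CPM. Of the 15 dissociation genes 2 were higher and 6 lower. Cebpa, 1 of 2 regulators tested in this cluster, was lower (log2 change -1.63, edgeR adjusted p = 0.0118). Of all genes in this cluster 12.2% were higher and 12.3% lower.

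Across 19 cell types in both groups (38 means, log2 of CPM plus 1, 15528 genes), the genes whose levels were most like those of Nox4 were Slc4a4 (Pearson r = 0.877), Cda (0.849), Kcnj15 (0.845), Lrp2 (0.837) and G6pc (0.837). Slc4a4 is the basolateral sodium bicarbonate cotransporter and Lrp2 is megalin, both of the proximal tubule. The genes most like Cybb were Clec12a (0.925), Spi1 (0.918), Plbd1 (0.917), Marchf1 (0.915) and Ly86 (0.913), several of them known from myeloid cells. The points share libraries and free RNA, and these correlations are descriptions without a test.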

How the data were processed

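Single cells of kidneys from 3 Sham and 3 DOCA-salt mice were analysed from the UMI counts per gene and barcode that the authors deposited, without normalization. The counts come from Cell Ranger on GRCm39; the submitters' processing notes name version 9.0.0, the file headers 8.0.1, and Seurat 4.0.0 in R 4.0.3. The members and gene lists were chosen with earlier results of these data known, and 1 gene of these lists is not reported here.

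Limits of 170 genes and 500 UMIs below, and of 50% mitochondrial and 5% hemoglobin UMIs above, were set on barcodes, which removed 16210 for mitochondrial and 3 for hemoglobin UMIs. Scrublet (scanpy 1.11.5) scored doublets, and the highest 0.8% per 1000 kept barcodes, 4931 in all, were removed. After scaling to 10000 UMIs and log transformation, 2000 variable genes without the members, their pathway genes, Trem2, Fcrls, Gpnmb, mitochondrial and hemoglobin genes gave 30 principal components, 15 neighbors and Leiden clusters (leidenalg 0.10.2, resolution 1). Immune clusters were clustered again. Markers of 21 classes named the clusters, and 20 classes were found.

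Counts were added up within each mouse and cell type and tested with edgeR 4.0.16 (R 4.3.3; low-count filter, TMM, quasi-likelihood test, Benjamini-Hochberg over all genes tested, threshold 0.05) where each mouse gave at least 10 cells. SE is the log2 change over the square root of F. P-values measure the spread between these mice. Whether counting used strand is not given in the sources used here, so reads of overlapping genes on opposite strands may be mixed. In data simulated at these depths, 64% of 2-fold and 97% of 4-fold changes were recovered in whole kidneys, 51% and 88% in macrophages, and 75% and 97% in proximal tubule. Genes named are the 6 members, list genes that passed and up to 4 per list of smallest adjusted p in whole kidneys, macrophages or proximal tubule, and the 5 genes most correlated with Nox4 and Cybb. List genes named in connecting tubule were chosen after their values were seen. Coordinates are from GENCODE M39. Sequences were read from GRCm39.

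Alternatives were DESeq2 1.42.0, its size factors, library size only, no low-count filter, the replicate number as a block, leaving out each mouse, 20% mitochondrial UMIs, no doublet removal, Leiden resolution 2, macrophages by markers, other sets of clusters or cells, other thinning depths (500, 2000 and none) and pseudocounts. Python 3.11.15, numpy 2.4.6, scipy 1.17.1 and pandas 2.3.3 were used.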

Additional observations from a re-analysis of the deposited data

Results flagged for a closer look

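The difference between cell types in the change from Sham to DOCA-salt mice passed the edgeR test for the following results, on the log2 scale. The change in macrophages minus that in proximal tubule was -0.921 for Nox4, -2.41 for Ncf4, -1.06 for Rac2 and -2.04 for Cybb. Ncf4 was too low to be tested in proximal tubule alone (5 UMIs in Sham and 35 in DOCA-salt mice) and entered through its macrophage counts. Cybb and Rac2 were also very low in proximal tubule, at 0.548 and 0.262 CPM in Sham and 2.13 and 0.653 CPM in DOCA-salt mice. The mean Nox4 level in macrophages was below the level expected from free RNA of proximal tubule in both groups. The part of free RNA in these differences was not tested. The change in connecting tubule minus that in proximal tubule was 2.39 for Nox4 and 0.869 for Cyba, and minus that in principal cells it was 2.02 for Nox4 and 0.451 for Cyba.

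Among cells that entered no test, Ncf4 in neutrophils of DOCA-salt mice stood at 207 CPM, from 23 UMIs in 45 cells, against 67.9 CPM in Sham mice from 4 UMIs in 25 cells. Nox4 in the cells of unnamed clusters stood at 368 CPM in DOCA-salt mice, against 172 CPM in Sham mice. These cells lie in 4 clusters that hold different shares of each group. With cells pooled over mice, Nox4 was at 228 CPM in Sham and 255 CPM in DOCA-salt mice in the largest, of 6299 cells, and at 117 and 388 CPM in the next, of 1065 cells.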

How the results depend on the processing

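In whole kidneys 3 to 4 members were called under all 16 alternatives. In macrophages, where 2 members were called, leaving out each mouse gave 1 to 2, and 1 was called with 20% mitochondrial UMIs, without doublet removal, at Leiden resolution 2 and, added after seeing the data, without 2 macrophage clusters of few UMIs or led by another type's genes. There 0 were called in macrophages without or with a UMI of Trem2, Fcrls or Gpnmb and in macrophages taken by markers, where the Nox4 change turned to 0.12. The subset with such a UMI held 33, 15 and 17 cells in the Sham mice. The number of all genes called also varied between settings, as given below. These counts alone therefore do not tell a lost change from a lack of power. In proximal tubule, with 1 member called, leaving out each mouse gave 0 to 2, and 2 were called without the low-count filter and, added later, with 3 unnamed clusters. Egr1 there turned to 0.27 at resolution 2 and 0.32 with those clusters. In other cell types, with 5 calls, leaving out each mouse gave 5 to 10 (10 without Sham mouse 2), 12 were called without the filter and 2 at resolution 2. The 5 calls were 1 in connecting tubule and 4 in cycling cells, where 24.5% and 8.59% of all genes were called. Without the filter more members entered the tests. Of these types, the number of all genes called under the alternatives is given below for connecting tubule only. Of the 5 genes most like Nox4, 2 remained with a pseudocount of 5, and of those most like Cybb, Ly86 and Marchf1 did. With a pseudocount of 0.1 all 5 remained for Nox4, and Clec12a, Spi1 and Plbd1 for Cybb, so no Cybb gene remained under both. Of 1123 alternatives for 80 single values, 938 kept direction and call, 99 lost and 19 gained a call, 64 moved and 3 reversed; causes were not tested.

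The replicate numbers were not taken to pair the mice, since no source used here says that they do. Same-numbered mice did not deviate together (r = -0.12, -0.32 and -0.09 in macrophages), but so few mice cannot exclude a shared day or cage. With the number as a block, 4 members were called in whole kidneys, 2 in macrophages, 0 in proximal tubule and 6 in other cell types. Genes called then went from 3392 to 2038 in whole kidneys, 1139 to 258 in proximal tubule, 550 to 274 in macrophages and 2435 to 1797 in connecting tubule. Over all alternatives these counts were 1745 to 4728, 258 to 2674, 26 to 890 and 329 to 2963. The proximal tubule alternative without injured cells gave no value because none of the 7 named proximal tubule clusters was classed as injured. An unnamed cluster of 1065 cells, with the injury marker Havcr1 among its leading genes, was not part of proximal tubule in any case. Low UMI numbers limit Ncf1 and Ncf4 most.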
